A study of Arabidopsis thaliana with 2 samples.

Results

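The pericentromere of Arabidopsis thaliana chromosome 5 and the gene-rich flank beyond it, from 10 to 18 Mb of the TAIR10 build, held 6411 of the 40612 positions in a deposited list of single nucleotide polymorphisms (SNPs). That is 15.8% of the list and 55.4% of the 11578 SNPs listed on chromosome 5. The members are all listed SNPs of chromosome 5 from position 10000001 to 18000000. The bounds were chosen by the density of listed SNPs, which is high up to about 18 Mb and low beyond it, so densities are given as a description and carry no test. The study mapped potent, a dominant mutation from an ethyl methanesulfonate (EMS; 50 mM, 12 hours) screen for plants impaired in lateral root formation. The mutagenized line was in the Col-0 ecotype and carried the reporters DR5::Luciferase, pWOX5::ER-YFP and pSCR::ER-GFP. After 6 crosses to the parental line and 5 crosses to the ecotype Ler, seedlings with the potent phenotype formed one group and seedlings without it the other, from about 200 seeds sown, with 1 sample of genomic DNA in each. Both groups were progeny of the fifth cross to Ler, and their labels give Ler as the ecotype.

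The single list names neither group, so the pools could not be compared and replicate error could not be estimated. The title of the list describes homozygous SNPs with the abbreviation MT, which the sources used here do not define. Each entry is a chromosome and a position, with no allele, read depth or quality. The 95% intervals below cover counting error only, and linked SNPs are not independent. A stretch without listed SNPs can hold the reference sequence, heterozygous sites or sites that could not be called, and these cannot be told apart here.

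A centromere is the part of a chromosome that binds the spindle. In Arabidopsis it consists of satellite repeats set in a pericentromere rich in transposable elements, where genes are few, chromatin is compact and crossovers are rare. Variants on one parental pericentromere are therefore often inherited together as a block. Further out along the arm, genes are dense and crossovers more frequent, so that blocks of parental sequence become shorter over repeated crosses. Col-0 and Ler differ at many natural SNPs throughout the genome, so a gene with a listed SNP need not have been hit by EMS.

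The annotation differed sharply between the inner and outer parts. Within 2 Mb of the rounded centromere position, 12 Mb, protein-coding genes covered 10.8% of the sequence and pseudogenes, many of which derive from transposable elements near Arabidopsis centromeres, covered 36.7%. From 14 to 18 Mb, protein-coding genes covered 50.5% and pseudogenes 7.17%. The first stretch is called the pericentromere below and the second the flank.

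Listed SNPs were about as dense in the pericentromere as in the flank. There were 3269 SNPs in the pericentromere, at 817 per Mb (789 to 846). The flank had 3142, at 785.5 per Mb (758 to 813). Their ratio was 1.04 (0.99 to 1.09), an interval that includes equality. The ratio was 0.813 when the inner zone was narrowed to 1 Mb either side of the centromere and 0.957 when at most 1 SNP per 1 kb bin was kept, so which of the stretches was denser depended on how they were counted. The first 10 Mb of the chromosome held 482 per Mb (468 to 495), and the pericentromere of chromosome 4, from 2 to 6 Mb, held 794 (767 to 822). The average of the first 10 Mb hides a dense end. Its 100 kb windows from 9 to 10 Mb held 56 to 126 SNPs, so high density began before 10 Mb.

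The stretches differed more in evenness than in level. In 100 kb windows, the pericentromere ranged from 6 to 205 SNPs with a median of 89, and the flank from 0 to 149 with a median of 80.5. The variance of the window counts was 26.9 times their mean in the pericentromere and 14.1 times in the flank. It was 20.7 times in the first 10 Mb and 23.8 times in the pericentromere of chromosome 4. By single Mb it ran from 11.6 (10 to 11 Mb) to 37.8 (11 to 12 Mb) in the pericentromere. In the flank it ran from 2.23 (16 to 17 Mb) to 29 (14 to 15 Mb). Of 40 windows in each stretch, 13 of the pericentromere and 11 of the flank held 100 SNPs or more, whereas 9 and 4 held 30 or fewer. Dense and sparse windows thus alternated in the pericentromere and also from 14 to 15 Mb of the flank, where they held 0 to 149 SNPs. Only between 15 and 17.6 Mb was the flank more even. There 25 of 26 windows held 50 SNPs or more, the exception being 47 in the window from 15.6 Mb. At the edges of the region, the windows on either side of 10 Mb held 117 and 137 SNPs, and those on either side of 18 Mb held 26 and 14.

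**Figure D1:**
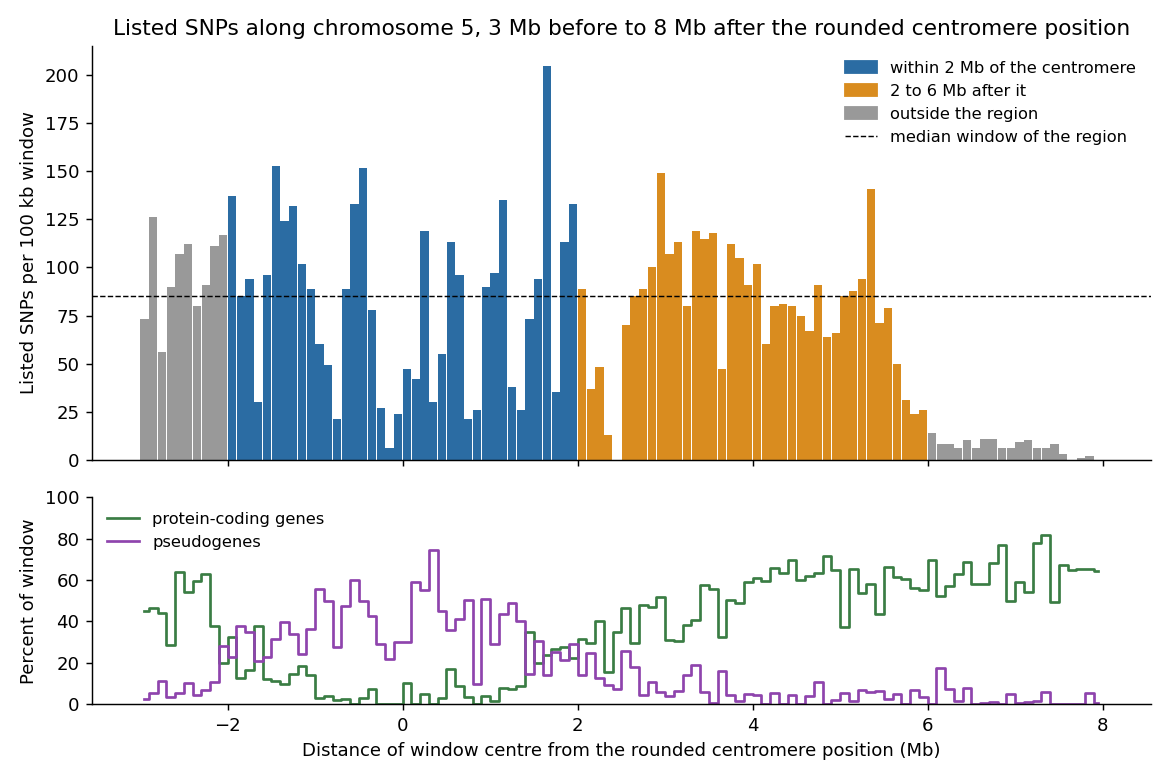
Listed SNPs in 100 kb windows (top, linear axis) and the percent of each window inside protein-coding genes and pseudogenes (bottom), against the distance of the window centre from 12 Mb on chromosome 5. Bars alternate between high and low within 2 Mb of the centromere, from 6 to 205 SNPs, and range from 0 to 149 between 2 and 3 Mb after it. They stay at 47 or more between 3 and 5.6 Mb after it, and drop over the last 0.4 Mb of the region.

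In steps of 0.5 Mb from the rounded centromere position, SNP density was lowest in the innermost step on both sides, at similar values. The innermost 0.5 Mb held 574 per Mb (510 to 644) before 12 Mb and 586 (521 to 657) after it. From 0.5 to 1 Mb away the values were 704 (632 to 782) and 692 (621 to 769). Within the innermost steps, however, the 100 kb windows differed between the sides. Those before 12 Mb held, in order of position, 152, 78, 27, 6 and 24 SNPs, and those after it 47, 42, 119, 30 and 55. In steps of 0.5 Mb the sides parted further out. Before the centromere, the densest step was 1 to 1.5 Mb away, at 1200 per Mb (1106 to 1300), and after it, the densest was 1.5 to 2 Mb away, at 1160 (1067 to 1258). In the innermost steps protein-coding genes covered 2.12% and 3.61% of the sequence and pseudogenes 34.6% and 52.8%.

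Windows near the centromere held few genes, whether they were rich or poor in SNPs. The 3 windows from 11.7 to 12 Mb held 27, 6 and 24 SNPs and 0 protein-coding genes each. The absence of genes did not go with few SNPs everywhere, because the window from 11.4 Mb held 133 SNPs and also had 0 protein-coding genes. Nor were sparse windows of the pericentromere always without genes. The window from 10.3 Mb held 30 SNPs and 16 protein-coding genes, and that from 13.3 Mb held 26 SNPs and 8 genes. Across the 40 windows of the pericentromere, SNP counts correlated with the percent of the window in protein-coding genes at Spearman's rho = 0.43 and with that in pseudogenes at 0.019. In the 40 windows of the flank the values were -0.018 and -0.0035. These coefficients describe linked windows of a single list.

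SNPs of the region came in clumps. The median distance between neighbouring SNPs was 404.5 bp in the pericentromere and 469 bp in the flank, against 708.5 bp in the first 10 Mb of the chromosome and 12086 bp beyond 18 Mb. Neighbours lay within 100 bp of each other in 26.4% and 25.6% of cases, and within 1 kb in 72.9% and 67.4%. Directly adjacent bases were listed 54 and 44 times. Joining neighbours up to 1 kb apart gave 1913 clumps over the whole region, with a mean of 3.35 SNPs. In 741 of these clumps, a lone SNP stood by itself, which made up 11.6% of all SNPs of the region.

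Large clumps took a larger share of the SNPs in the pericentromere than in the flank. The pericentromere held 69 clumps of 10 SNPs or more with 1046 SNPs, or 32% of its total, and the flank 46 with 601 SNPs, or 19.1%. In the pericentromere of chromosome 4 the share was 25.6%, and in the first 10 Mb of chromosome 5 it was 11.6%. Beyond 18 Mb there were 0 such clumps, and the largest held 4 SNPs. Clump size depends on SNP density, so the lower values of the first 10 Mb and beyond 18 Mb are no separate result. The share was highest from 13 to 14 Mb, at 45.5%, and lowest from 17 to 18 Mb, at 7.55%. By single Mb the stretches overlapped. From 12 to 13 Mb the share was 20.3%, below the 22.2% from 14 to 15 Mb and the 25.9% from 15 to 16 Mb. No test of these differences was possible with 1 list.

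**Figure D2:**
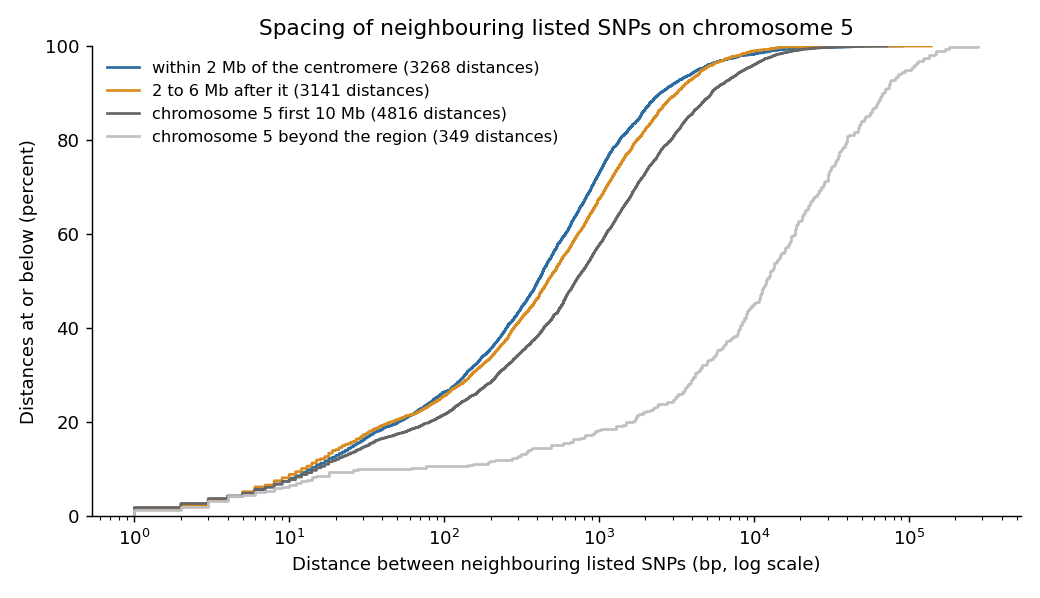
Cumulative percent of distances between neighbouring listed SNPs (log axis, in bp) in the pericentromere, the flank, the first 10 Mb of chromosome 5 and the chromosome beyond 18 Mb. The curves of the pericentromere and the flank lie close together, with medians of 404.5 and 469 bp, and the curve beyond 18 Mb is displaced to a median of 12086 bp.

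Of the 10 largest clumps, 9 lay in the pericentromere, and 5 of these overlapped pseudogenes. The 631 pseudogenes of the pericentromere covered 36.7% of its sequence. How often stretches of similar length touch one was not computed, so the count shows no link between clumps and pseudogenes. The largest, of 43 SNPs over 9497 bp at chr5:13640280-13649776, overlapped the pseudogenes AT5G35413 and AT5G35416. The densest of the 10 held 38 SNPs in 5504 bp at chr5:10050032-10055535, or 6.9 per kb, and overlapped the pseudogene AT5G28053. A clump of 36 SNPs at chr5:13973593-13981477 overlapped AT5G35800 and AT5G35802, also pseudogenes. The exception in the flank, 30 SNPs over 6393 bp at chr5:15590487-15596879, overlapped the genes AT5G38950, AT5G38960 and BR6OX1 (AT5G38970), a cytochrome P450 of brassinosteroid synthesis.

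The densest window, from 13.6 Mb, combined the largest clump with several SNP-rich genes. Of its 205 SNPs, 9 lay in SOS2, a protein kinase of the salt tolerance pathway, 9 in AT5G35430, 10 in AT5G35460 and 8 in AT5G35480, while AT5G35400 and AT5G35450 held 0. The next densest windows held 153 SNPs from 10.5 Mb, where BIP1, an endoplasmic reticulum chaperone, carried 5, and 152 from 11.5 Mb, which had 2 protein-coding genes with 4 and 1 SNPs.

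Gaps over 10 kb between neighbouring SNPs numbered 91 and covered 1.89 Mb, or 23.6% of the region. They were more extensive in the pericentromere, with 58 gaps and 1213 kb, than in the flank, with 33 gaps and 672 kb. Only 7 SNPs of the region had no other within 10 kb there. Of the 10 longest gaps, 8 lay in the pericentromere and 7 held no protein-coding gene. Protein-coding genes covered only 10.8% of the pericentromere, and how often stretches of similar length hold none was not computed. The count therefore shows no link between gaps and missing genes. The longest gap of the pericentromere ran from 12795641 to 12887751, 92.1 kb with 6 pseudogenes inside. The next, of 70.5 kb from 11836140 to 11906689 and 55.3 kb from 11684806 to 11740101, held 3 and 6 pseudogenes and 2 and 1 microRNA genes.

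The longest gap of the region lay in the flank and held protein-coding genes. No SNP was listed between 14376757 and 14517910, a distance of 141 kb with 24 protein-coding genes and 14 pseudogenes. It adjoined another of the 5 longest gaps, 50.1 kb from 14326691, which held 21 protein-coding genes. The SNP at 14376757 alone separated them, so that 191 kb with 45 protein-coding genes and 16 pseudogenes held 1 listed SNP. The rest of the flank held 825 SNPs per Mb. The window from 14.4 Mb, inside the longest gap, was the only one of the region at 0. Protein-coding genes covered 34.8% of that window, less than the 50.5% of the whole flank. Just beyond the gap SNPs resumed, and GSL09, a callose synthase-like gene and the first gene after it, carried 9.

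The annotation inside these adjoining gaps was repetitive. Of the 61 genes there, 24 had a span of exactly 357 bp, against 26 genes of that span in the whole region. Of the 23 distances between their successive starts, 17 were under 3 kb, and these ran from 2190 to 2202 bp with a median of 2195 bp. Further along, some genes recurred in the same order with spans within 50 bp of each other at an offset of 59.3 kb. Pairs were kept only with an offset within 100 bp of the commonest one, so the close offsets and spans follow in part from the selection. There were 9 such pairs of genes over 400 bp, with the offset between 59.296 and 59.3 kb. In 4 pairs the spans were identical. AT5G36670 and AT5G36740, the longest genes of the gap, had spans of 5701 and 5715 bp. PGLP1 (AT5G36700), a phosphoglycolate phosphatase of photorespiration, and AT5G36790 had spans of 3429 and 3446 bp. The genes of the 9 pairs all lie inside the longest gap, so their counts of 0 listed SNPs follow from the gap and are no separate result. Near-identical copies can prevent short reads from being placed, but neither the sequence identity of these copies nor read placement was measured here, and their part in the gap was not tested.

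Protein-coding genes of the region carried SNPs at densities closer to those of sequence outside genes than in the first 10 Mb of the chromosome or over the whole list. In the pericentromere, protein-coding genes held 779 SNPs per Mb (698 to 867), pseudogenes 803 (757 to 850) and unannotated sequence between them 831 (793 to 872), and all 3 intervals overlapped. In the flank, protein-coding genes held 744 (707 to 782) and sequence outside genes 909 (863 to 956), with intervals that did not overlap. The density in protein-coding genes relative to that outside genes was 0.937 (0.831 to 1.05) in the pericentromere and 0.819 (0.762 to 0.88) in the flank. It was 0.501 (0.473 to 0.531) in the first 10 Mb of the chromosome, 0.952 (0.864 to 1.05) in the pericentromere of chromosome 4 and 0.659 (0.646 to 0.673) over the whole list.

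This ratio was lowest in the last 2 Mb of the region. It was 0.959 (0.8 to 1.14) from 10 to 12 Mb, 0.907 (0.772 to 1.06) from 12 to 14 Mb, 0.924 (0.836 to 1.02) from 14 to 16 Mb and 0.756 (0.68 to 0.841) from 16 to 18 Mb. Leaving out 0.5 Mb either side of the centromere, an alternative chosen after seeing the data, moved the ratio of the pericentromere to 0.815, close to that of the flank. In that innermost 1 Mb, sequence outside genes held 507 SNPs per Mb (449 to 572), pseudogenes 649 (576 to 730) and protein-coding genes 907 (593 to 1329), the last from 26 SNPs. From 0.5 to 2 Mb away the values were 944 (896 to 994), 868 (812 to 926) and 770 (687 to 860), so the order of the classes was the opposite of that at the centre. Intervals that overlap do not show that the densities are equal.

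SNP density in pseudogenes differed between the inner and outer stretches. In the flank they held 387 SNPs per Mb (318 to 466), below both other classes, and in the pericentromere 803. Without the adjoining gaps near 14.4 Mb, an alternative chosen after seeing the data, the value in the flank was 424. In the pericentromere 329 of 631 pseudogenes (52.1%) held a SNP and in the flank 45 of 145 (31%), but their spans also differed, with medians of 1800 and 1164 bp.

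**Figure D3:**
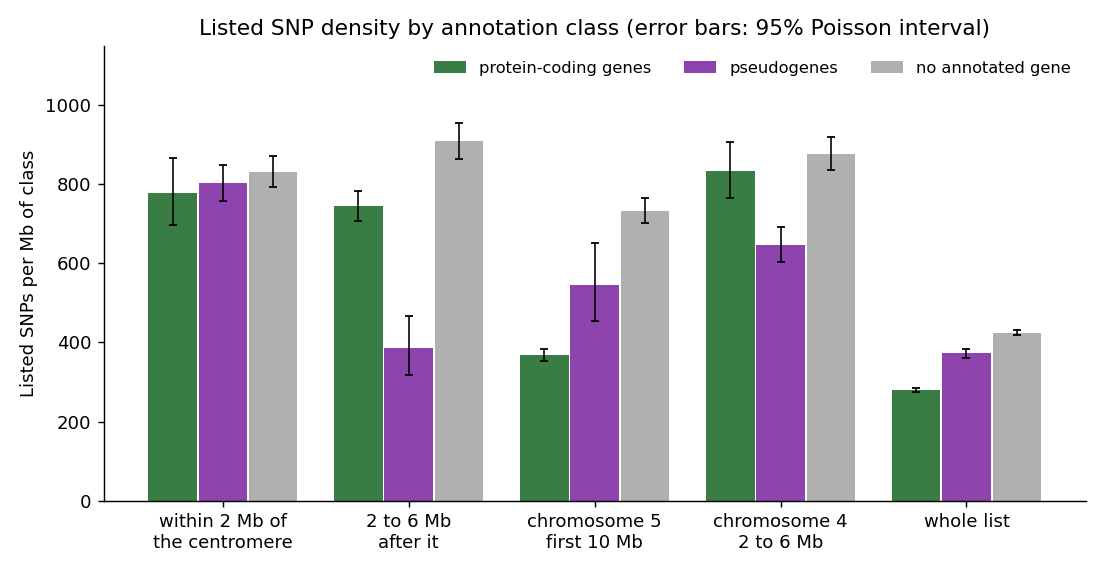
Listed SNPs per Mb of protein-coding genes, pseudogenes and sequence in no annotated gene, in the pericentromere and flank of chromosome 5 and in 3 other parts of the list, with 95% Poisson intervals as error bars. In the pericentromere the 3 classes lie between 779 and 831 per Mb, whereas in the first 10 Mb of the chromosome genes reach 367 against 733 outside them.

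Of the 1155 protein-coding genes lying wholly in the region, 617 (53.4%; 50.5 to 56.3%) held at least 1 listed SNP. Over the whole list the share was 29.2%, but the region was chosen for its density, so the difference is no result. The share was 53.6% among the 207 genes of the pericentromere and 53.4% among the 948 of the flank. No SNP was listed in 538 genes, 1 in 228, 2 to 4 in 258, 5 to 9 in 116 and 10 or more in 15. The share reached 71.9% when 500 bp either side of each gene was included.

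The 10 genes with the most listed SNPs all lay in the flank, which also held most of the genes. EMB2656 (AT5G37630), named for an embryo-defective mutant, carried 17 SNPs over a span of 5580 bp. AT5G38030 carried 16 and AT5G39790 carried 14, the latter in 2766 bp, which at 5.06 per kb was the highest density of the 10. XPB2 (AT5G41360), a DNA helicase of the transcription and repair factor TFIIH, carried 13. AT5G35970 and AT5G38210 carried 12 each, and AT5G37530, SYN2, AT5G41140 and MRN1 carried 11 each. Another gene with 11, the casein kinase gene ckl8, fell outside the 10 because ties were broken by locus number.

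Neighbouring genes of related function could differ widely. XPB2 held 13 SNPs in 4995 bp and its neighbour and relative XPB1 (AT5G41370) held 1 in 4920 bp. Since the genes are related, reads could be exchanged between them, which was not tested. MRN1, the marneral synthase of a triterpene gene cluster, held 11 in 4793 bp. CYP71A16 and CYP705A12, cytochrome P450 genes of that cluster, held 6 in 2777 bp and 1 in 1860 bp. Per kb, MRN1 and CYP71A16 were alike, at 2.3 and 2.16 SNPs, and CYP705A12 was lower, at 0.538.

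The longest genes with no listed SNP were MYA2 (10558 bp), a myosin motor of organelle movement, YAK1 (8392 bp), a protein kinase, and RLT2 (7807 bp), a partner of chromatin remodelling ATPases. AT5G28350 (7261 bp) and AT5G42950 (7115 bp) completed the 5. The next SNPs were 5264 and 12075 bp away from MYA2 and 8954 and 13989 bp away from RLT2. Both genes lie in the stretch near 18 Mb where density fell. By contrast, SNPs were listed 796 and 343 bp to either side of AT5G42950.

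**Figure D4:**
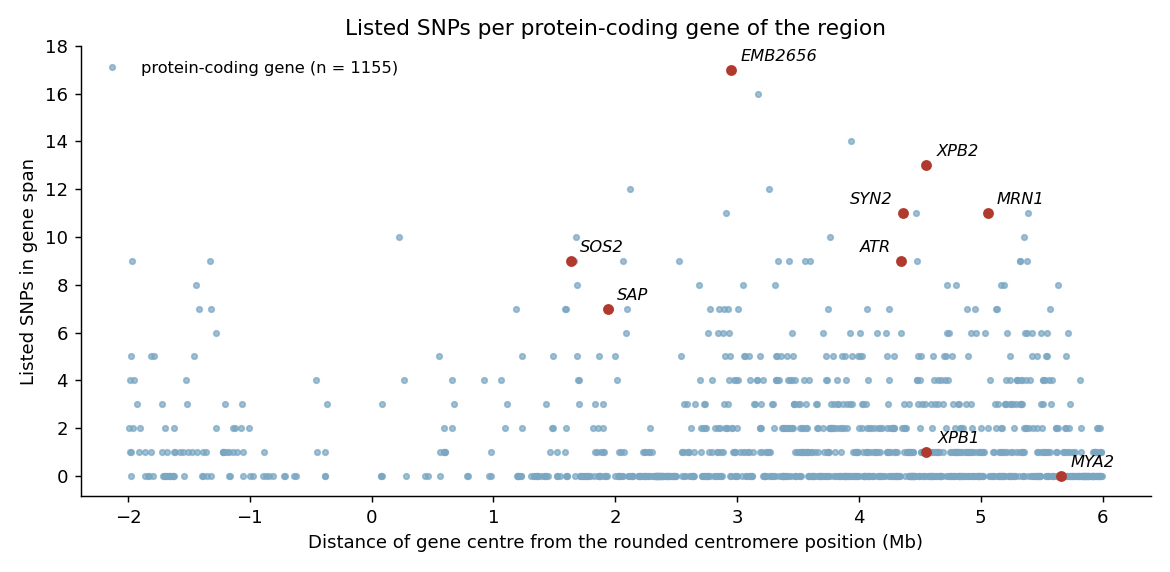
Listed SNPs in the span of each of the 1155 protein-coding genes of the region, against the distance of the gene centre from 12 Mb. Genes are few around the centromere and the highest counts lie in the flank, led by EMB2656 at 17, while XPB1 stands at 1 beside XPB2 at 13 and MYA2 at 0.

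Of the 7 listed genes of DNA repair and chromosome behaviour, 5 lay in the region and each held a SNP. Among all protein-coding genes of the region 53.4% held one. SYN2 (AT5G40840), a subunit of the cohesin ring that holds sister chromatids together, carried 11. ATR, the kinase that responds to stalled replication, carried 9 over 11171 bp, and UVH1 (AT5G41150), an endonuclease of nucleotide excision repair, carried 9 over 4654 bp. MIS12, a kinetochore protein whose gene lies in the pericentromere, carried 3, and XPB1 carried 1. POLH and REV1, DNA polymerases that copy damaged templates, lie beyond 18 Mb and were left out. The median of the 5 was 9 SNPs, against 1 over all genes of the region, but these genes were also longer, with a median span of 4654 bp against 1860 bp. The list was not chosen independently of the data.

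Of 12 listed genes of hormone signalling and development, 11 lay in the region. Of these, 7 held a SNP, with a median of 1 SNP a gene, where 53.4% of all genes of the region held one and their median was also 1. Some members held none, as did 538 of the 1155 genes of the region: ARF8, an auxin response factor, IAA4 (AT5G43700), an Aux/IAA repressor, and ASK2, an adaptor of ubiquitin ligases, held 0. AHK2 (AT5G35750), a cytokinin receptor, also held 0. For ARF8 the nearest SNPs lay 652 and 2947 bp away, for IAA4 2619 and 4880 bp away, and for AHK2 3620 and 9072 bp away. SAP, a regulator of flower development, held 7, CESA4, a cellulose synthase of secondary walls, 6, and VTI11 (AT5G39510), a vesicle fusion protein needed for shoot gravitropism, 4. DRP1A, a dynamin-related protein of endocytosis, held 3, and ERA1, a farnesyltransferase subunit in abscisic acid signalling, AGO10, an Argonaute protein of the shoot meristem, and BEL1, a homeodomain protein of ovules, held 1 each. GSO2 lay beyond 18 Mb.

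Gene families were found by name only, and 820 of the 1155 genes have no symbol other than their locus number, so the counts cover named members alone. Each count below is small, and its share is to be set beside the 53.4% of all genes of the region that held a SNP and their median span of 1860 bp. Of the 10 genes with cytochrome P450 in their names, 6 held a SNP, and that search missed BR6OX1, with 9 SNPs. CYP735A1, which makes trans-zeatin cytokinins, held 2 and AOS, an enzyme of jasmonate synthesis, held 1. MADS-box transcription factor genes held a SNP in 2 of 8, namely AGL105 with 2 and AT5G37420 with 1, and had a median span of 1169.5 bp. Of the defensin-like genes, which encode small secreted cysteine-rich proteins, 2 of 6 held a SNP, and the median span was 696.5 bp. LCR58 carried 8 in 1167 bp and LCR80 4 in 829 bp, whereas LCR57, LCR28, PDF1.2 and PDF1.2c held 0.

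The counts of this paragraph, too, are to be set beside the 53.4% of all genes of the region. Receptor kinase genes, with a median span of 3694 bp, held a SNP in 4 of 5. They were led by PRK1, a kinase of the pollen tube, with 7, PR5K with 3, and CRK42 and AT5G42120 with 1 each. Ribosomal protein genes held one in 1 of 4, RPL27 with 3, and F-box genes in 1 of 2, AT5G42360 with 1. The name search for immune receptors of the NLR class returned RPP8, a downy mildew resistance gene, with 2, and CDR1, which is an aspartic protease and not a receptor, with 1. No pentatricopeptide repeat gene was found by name.

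The 23 microRNA genes had short spans, with a median of 172 bp, so their counts are not comparable with those of protein-coding genes. A SNP was listed in 3 of them: MIR869 held 2, MIR5644 held 1 and MIR5628 held 1. All 5 members of the MIR854 family in the region, MIR854a to MIR854e, lay before 12 Mb in the pericentromere and held 0. The next listed SNP after MIR854c was 68373 bp away. The conserved MIR166e, MIR166f, MIR319b, MIR396b and MIR169c also held 0.

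Density fell towards 18 Mb over several windows and not as a step. The last window at or above the regional median of 85 ended at 17.4 Mb, and the following windows held 71, 79, 50, 31, 24 and 26 SNPs up to 18 Mb, then 14, 8, 8 and 6. In steps of 0.2 Mb the density was 1175 per Mb (1030 to 1335) from 17.2 Mb, 750 (635 to 880) from 17.4 Mb, 405 (322 to 503) from 17.6 Mb, 250 (186 to 330) from 17.8 Mb and 110 (68.9 to 167) from 18 Mb. From 18 to 20 Mb, the 20 windows held between 0 and 14 SNPs. The 1 Mb up to 17.6 Mb held 846 SNPs and the 1 Mb from 18 Mb held 86, a 9.84-fold difference. The place of the fall moved with the windows. With 50 kb windows the last at or above the median ended at 17.65 Mb, and with windows shifted by 50 kb at 17.55 Mb.

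Along the fall the share of genes with a SNP was lower at each step from 17.2 to 18.2 Mb, while the share of sequence in protein-coding genes varied between 43.4% (window from 17.4 Mb) and 69.6% (window from 18 Mb). Protein-coding genes covered 58.4% of the window from 17.3 Mb, which held 141 SNPs, and 56.1% of that from 17.8 Mb, which held 24. The share of genes with a listed SNP was 55.6% of 45 from 17 Mb, 74.5% (61.7 to 84.2%) of 55 from 17.2 Mb, 55.8% of 52 from 17.4 Mb, 43.2% of 44 from 17.6 Mb, 25.4% (16.1 to 37.8%) of 59 from 17.8 Mb, 15.2% of 46 from 18 Mb and 22.9% of 35 from 18.2 Mb. From 17 to 18 Mb the largest clump held 11 SNPs, and from 18 to 19 Mb it held 4. Fewer SNPs leave smaller clumps and fewer genes with a SNP, so neither is a result separate from the fall in density. In the window from 17.3 Mb, TAF4, a subunit of the transcription factor TFIID, held 9, SPL2, a transcription factor of the shoot, held 6, and LURE1.1, a pollen tube attractant, held 2. Whether the fall reflects the end of a stretch of Ler sequence, a change to heterozygous sites, filtering or loss of callable sites cannot be told apart here. Alleles, depth or a list from each pool would be needed.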

How the data were processed

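Per the labels' protocols, genomic DNA of collected seedlings was sequenced on a HiSeq2000. The deposited table holds chromosome numbers and positions, per the file headers, and no other value. SNPs were identified with SNPtrack, per the series' design text, on the TAIR10 build, per the submitters' processing notes. Not given in the sources used here are the aligner, thresholds and depth.

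Positions were counted in 100 kb windows, neighbours up to 1 kb apart were joined into clumps, and densities were given exact Poisson 95% intervals, shares Wilson intervals and ratios exact binomial intervals (Python 3.11.15, numpy 2.4.6, scipy 1.17.1). Gene names and spans came from RefSeq's TAIR10.1, whose nuclear chromosomes are those of TAIR10; no gene coordinates are printed. Of the listed SNPs of the region, 28.7% lay in protein-coding genes, and between 28.9% and 31.5% did after shifting the annotation by 100 to 3000 bp. A base in several genes counted as protein-coding first. The counting was tested on simulated lists.

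Named genes were the 10 with the most SNPs, the 5 longest with none, genes in the 5 longest gaps and list members. Genes in the densest windows and largest clumps, PGLP1, GSL09, ckl8 and the microRNA genes were named after their values were seen. The members and lists were chosen with earlier results of these data known. Without a genome sequence, base composition, coding sequence and undetermined bases were not analysed here.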

Additional observations from a re-analysis of the deposited data

How the results depend on the processing

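No paired analysis was possible because the list cannot be split by pool. Of 43 recomputed values, 19 were unmoved and 24 moved. Densities, shares and ratios were unmoved if within the counting interval of the original, and medians if within an interval from ranked values. Counts of windows and clumps and the mean SNPs per clump had to stay within 1.5 times. The longest gap and the place of the fall had to be equal. Keeping at most 1 SNP per 1 kb bin gave densities of 395 and 413 per Mb in the pericentromere and flank, with a ratio of 0.957. Median distances were then 1375 and 1459 bp. By class, protein-coding genes held 385 and 379.6 per Mb, pseudogenes 387 and 241, and sequence outside genes 401 and 483. These lower levels follow from removing SNPs. The ratio of pericentromere to flank was 0.954 within 1.5 Mb of the centromere and 0.813 within 1 Mb. Shifted windows left 0 empty windows in place of 1. Joining within 500 bp gave 2976 clumps of 2.15 SNPs on average, and within 2 kb 998 clumps of 6.42. Without isolated SNPs the longest gap was 191 kb, and such a filter can only widen a gap. The fall was placed at 17.65 Mb with 50 kb windows and at 17.55 Mb with shifted windows (the cause was not tested). Without 0.5 Mb either side of the centromere, the gene to intergenic ratio of the pericentromere was 0.815, and without the adjoining gaps sequence outside genes of the flank held 980 per Mb. With 500 bp either side, 71.9% of genes held a SNP. Alternatives for undetermined bases, base composition, isoforms and coding sequence were not run, because they need a genome sequence. Read depth is unknown, so what depth limits cannot be stated.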
